A study of Mus musculus with 6 samples.

Results

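The interferon response of macrophages is set by receptor chains at the cell surface, by STAT and IRF transcription factors and by inhibitors of the receptor kinases. The expression of 9 genes of this pathway was examined in macrophages with and without MSR1 (macrophage scavenger receptor 1). They were Ifnar1, Ifnar2, Ifngr1, Ifngr2, Stat2, Irf1, Irf7, Irf9 and Socs1, taken by gene symbol from the 52550 genes of the deposited count table. Since they were picked with earlier results of these data known, their call counts are no independent evidence. Each of the 9 symbols had 1 row, and all 9 genes passed the filter on low counts.

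RNA-seq libraries were made from bone marrow-derived macrophages of MSR1 KO mice (3 libraries, MSR1 KO) and of MSR1 WT mice (3 libraries, MSR1 WT), both on the C57BL/6 background. All macrophages had been grown for 7 days with 25 ng/ml M-CSF, the growth factor that drives marrow cells towards macrophages, and then kept for 48 h in a transwell with bone marrow stem cells (BMSCs), which sat in the upper chamber while the macrophages sat in the lower. No interferon and no microbial ligand is named in the treatment of these cells. Total counts ranged from 36143518 to 47417448 per library. Reads on Msr1, the targeted gene, were 2118, 1825 and 2000 in MSR1 KO against 7543, 9163 and 9219 in MSR1 WT, a log2 fold change of -2.02 (SE 0.135, adjusted p = 0.00124, edgeR's quasi-likelihood test), so the genotype labels held while reads on the gene remained. The libraries are biological replicates by the study's account, and nothing ties a library to an animal, so the p-values measure the spread between these libraries. The cells carried macrophage markers. The summed level of 12 of them, in CPM (counts scaled to a common library size), was between 27033 and 28299 in MSR1 KO. In MSR1 WT it was between 26508 and 28992 CPM. Lyz2 alone made up 13398 CPM of the sum in MSR1 KO and 14912 CPM in MSR1 WT on average. For 7 of the 12 markers every MSR1 KO library lay above every MSR1 WT library, and for 0 below.

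Type I interferons (IFN-α and IFN-β) bind a receptor built from the IFNAR1 and IFNAR2 chains, and type II interferon (IFN-γ) binds one built from IFNGR1 and IFNGR2. Kinases of the JAK family held by these chains phosphorylate STAT proteins. STAT2 and IRF9 act within ISGF3, the complex that binds the interferon-stimulated response element (ISRE), whereas STAT proteins activated by IFN-γ bind the gamma-activated sequence (GAS). IRF1 and IRF7 are transcription factors that interferons induce and that carry the response further, IRF7 towards the IFN-α genes and IRF1 towards many IFN-γ-induced genes. SOCS1 is induced by the same signals and blocks the JAK kinases. Macrophages are known for low tonic signalling through this pathway and for strong responses once interferon is present.

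The promoters of 4 of the 9 genes held a core of these elements and are shown. Of these genes, Stat2, Irf1 and Socs1 were called higher in MSR1 KO macrophages and Ifnar2 was not. Irf7 was called higher and its window held neither core. A link between a core and a call was not tested. The letters searched, on both strands, were GAAA, any 2 bases and GAAA again for the ISRE core and TTCNNNGAA for the GAS core, in the 250 bases before each RefSeq transcription start (GRCm38.p6). All 9 genes were matched, with 11 start sites between them. Below, the strand of the gene is printed 5′ to 3′, and capitals mark the match.
Stat2, chr10:128270248-128270497, plus strand: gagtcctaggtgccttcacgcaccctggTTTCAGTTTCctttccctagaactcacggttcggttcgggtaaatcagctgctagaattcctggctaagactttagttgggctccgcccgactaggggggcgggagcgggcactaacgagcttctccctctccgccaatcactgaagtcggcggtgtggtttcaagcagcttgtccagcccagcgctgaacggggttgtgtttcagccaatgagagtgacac
Irf1, chr11:53769764-53770013, plus strand: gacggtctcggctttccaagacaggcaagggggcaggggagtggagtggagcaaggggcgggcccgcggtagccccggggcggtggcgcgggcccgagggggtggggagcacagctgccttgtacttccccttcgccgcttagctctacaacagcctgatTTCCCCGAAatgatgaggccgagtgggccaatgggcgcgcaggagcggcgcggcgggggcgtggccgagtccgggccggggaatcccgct
Socs1, chr16:10785537-10785786, minus strand: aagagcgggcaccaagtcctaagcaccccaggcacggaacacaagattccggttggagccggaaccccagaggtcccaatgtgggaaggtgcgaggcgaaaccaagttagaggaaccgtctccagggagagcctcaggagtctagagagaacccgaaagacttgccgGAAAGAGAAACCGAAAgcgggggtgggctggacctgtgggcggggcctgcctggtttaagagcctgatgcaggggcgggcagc
Ifnar2, chr16:91372533-91372782, plus strand: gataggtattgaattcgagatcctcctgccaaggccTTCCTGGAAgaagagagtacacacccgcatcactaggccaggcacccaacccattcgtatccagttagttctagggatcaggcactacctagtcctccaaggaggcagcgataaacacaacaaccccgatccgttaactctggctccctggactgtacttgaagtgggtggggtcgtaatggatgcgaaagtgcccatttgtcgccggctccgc
The Stat2 window held an ISRE core, read on the other strand as GAAACTGAAA, between 222 and 213 bases before the start site. The Socs1 window held 2 overlapping ISRE cores, GAAAGAGAAA at 83 to 74 bases and GAAACCGAAA at 77 to 68 bases before the start. The Irf1 window held the GAS core TTCCCCGAA at 90 to 82 bases, and the Ifnar2 window held the GAS core TTCCTGGAA at 214 to 206 bases before the start. None of these 4 windows overlapped an annotated exon of its gene. The windows at the start sites of Irf7, Irf9, Ifnar1, Ifngr1 and Ifngr2 held neither string, nor did the other start site of Irf1. Both Irf9 start sites lay inside the deposited gene, 414 and 1008 bases from its start. Of their windows, 250 and 88 bases were exon bases of Irf9, and the sequence before the deposited gene start was not searched. The windows of Irf7 and of the other Irf1 start held 57 and 56 exon bases of their gene. Of 32851 windows of the same length at all start sites of 27025 genes, 978 (2.98%) held the ISRE core and 2306 (7.02%) the GAS core. A match describes the letters in the window, and binding was not measured here.

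Of the 9 genes, 4 were higher in MSR1 KO macrophages by the study's definition of a differentially expressed gene (fold change above 1.5 and unadjusted p under 0.05), and 0 were lower. They were Stat2, Irf1, Irf7 and Socs1. Among all 16402 genes tested, 3.59% were higher and 5.05% were lower by this definition. At an adjusted p under 0.05 over all tested genes, whatever the fold, 4 of the 9 were higher, namely Stat2, Irf7, Irf9 and Socs1, against 2.25% of all genes higher and 2.66% lower. Every MSR1 KO library lay above every MSR1 WT library for 6 of the 9 genes (these and Irf1 and Ifnar2), which held for 12.1% of all genes. For 0 of the 9 did every MSR1 KO library lie below, against 13.4% of all genes. The median log2 fold change of the 9 genes was 0.48, and that of all tested genes was -0.0023. Those called were the signalling factors and the inhibitor, and none of the 4 receptor chains was among them. The call by fold and p held for the same 4 genes when any library was left out, and Irf9 joined them without MSR1 WT replicate 3. The adjusted p was less stable. Its count of 4 genes went to 0 without MSR1 KO replicate 1 or MSR1 WT replicate 1. It went to 1 in the absence of MSR1 KO replicate 2 (Stat2) or MSR1 WT replicate 2 (Irf7). In that of MSR1 KO replicate 3 it went to 2 (Stat2 and Irf1). The number of all genes higher at this threshold went from 369 to 42, 97 and 183 without MSR1 KO replicate 1, 2 and 3. Without MSR1 WT replicate 1, 2 and 3 that number was 18, 62 and 407.

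**Figure D1:**
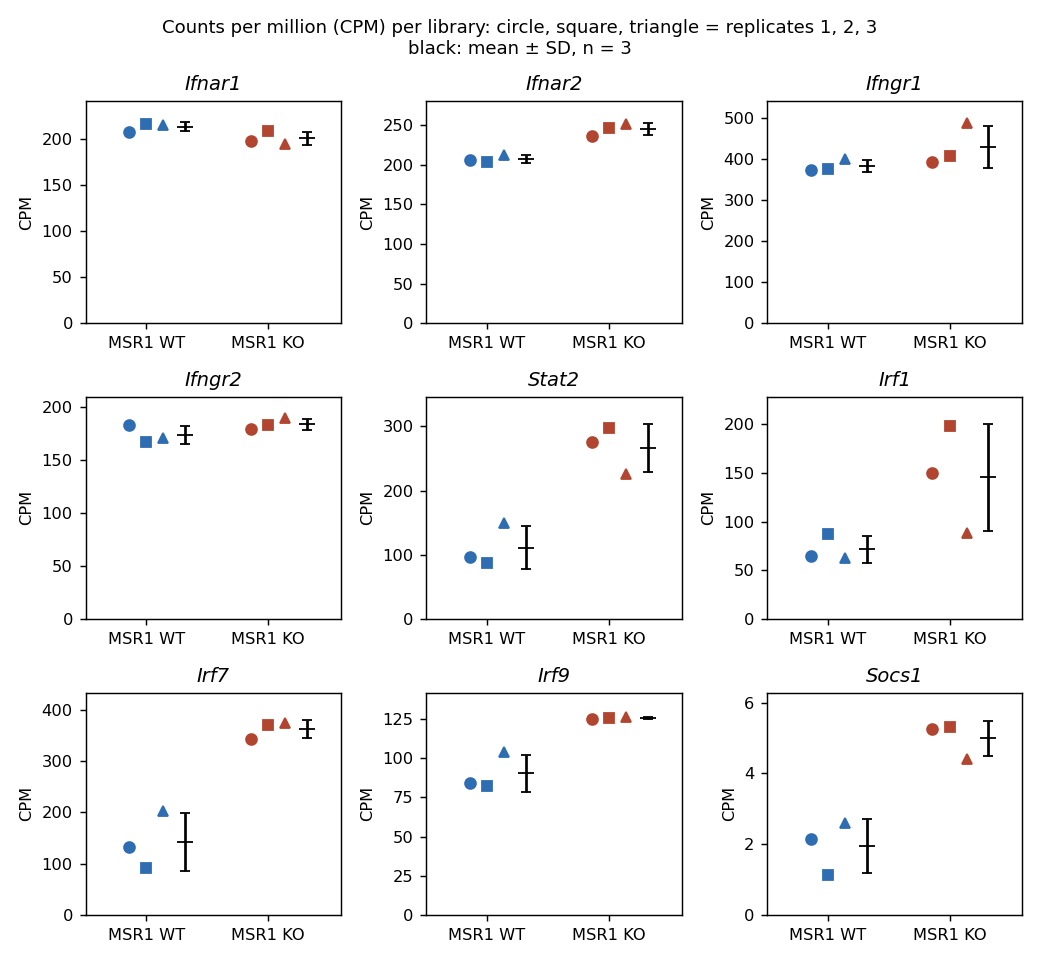
Level of each gene in CPM (vertical axes, from 0) in the 3 MSR1 WT libraries (blue) and the 3 MSR1 KO libraries (red), with a marker shape per replicate number and the mean ± SD in black. The groups are close or overlap for the 4 receptor chains and are apart for Stat2, Irf7, Irf9 and Socs1, whereas for Irf1 the lowest MSR1 KO library (88.3 CPM) nearly meets the highest MSR1 WT library (87.5 CPM).

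The 4 receptor chains were abundant in both genotypes and differed little between them. Ifnar2, Ifnar1 and Ifngr2 lie in this order on the plus strand of chromosome 16, and Ifngr1 lies on chromosome 10.
Ifnar2 (ENSMUSG00000022971.18, chr16:91372783-91405589) encodes the chain that binds type I interferon with high affinity. Its level was 236, 247 and 252 CPM in MSR1 KO and 207, 203 and 213 CPM in MSR1 WT. The groups did not overlap, and the distance between them was small. The log2 fold change was 0.24 (SE 0.0625, 95% interval 0.10 to 0.38), a fold of 1.18, with an unadjusted p of 0.00476 and an adjusted p of 0.0723 by edgeR. Ifnar2 thus stayed under the fold threshold and missed the adjusted threshold. By DESeq2's Wald test its adjusted p was 0.0242.

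Ifnar1 (ENSMUSG00000022967.12, chr16:91485238-91507441) encodes the other chain of the type I receptor. Its level was 199, 209 and 195 CPM in MSR1 KO and 208, 217 and 216 CPM in MSR1 WT, so that the groups overlapped. The log2 fold change was -0.09 (SE 0.0638, 95% interval -0.24 to 0.06, adjusted p = 0.522, edgeR). It was the only member of the 9 with a value below 0.

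Ifngr1 (ENSMUSG00000020009.12, chr10:19591949-19610229), the ligand-binding chain of the IFN-γ receptor, was at 394, 407 and 487 CPM in MSR1 KO and at 373, 376 and 400 CPM in MSR1 WT. The groups overlapped, and MSR1 KO replicate 3 stood above the other 5 libraries. The log2 fold change was 0.17 (95% interval -0.04 to 0.37, adjusted p = 0.379, edgeR). Ifngr2 (ENSMUSG00000022965.7, chr16:91547072-91565169), the chain that brings JAK2 to that receptor, was at 179, 183 and 189 CPM against 183, 167 and 170 CPM. These groups overlapped too, with a log2 fold change of 0.08 (95% interval -0.07 to 0.24, adjusted p = 0.582, edgeR). For all 4 chains the 95% interval lay between -0.24 and 0.38 on the log2 scale, which leaves out a change of 1.5-fold in either direction.

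Stat2 (ENSMUSG00000040033.16, chr10:128270559-128292849) encodes the STAT that type I interferon signalling brings into ISGF3. Its level was 277, 298 and 225 CPM in MSR1 KO and 96.9, 86.6 and 149 CPM in MSR1 WT. The lowest MSR1 KO library was 1.51 times the highest MSR1 WT library, which was MSR1 WT replicate 3. The mean was 266 ± 37.1 CPM (SD, n = 3) in MSR1 KO against 111 ± 33.4 CPM in MSR1 WT. Stat2 rose 2.40-fold (95% interval 1.75 to 3.31), a log2 fold change of 1.27 (SE 0.201, adjusted p = 0.0193, edgeR). Leaving out any of the libraries gave values between 1.11 and 1.54, with adjusted p-values between 0.00215 and 0.0926 (edgeR).

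Irf9 (ENSMUSG00000002325.14, chr14:55603571-55610030), the DNA-binding partner of STAT2 in ISGF3, was at 125, 126 and 127 CPM in the MSR1 KO libraries. These 3 values were within 1.01-fold of each other, the tightest of the 9 genes in that group. In the MSR1 WT libraries it was at 84.4, 82.5 and 104 CPM, again with replicate 3 the highest. The groups did not overlap. Irf9 was 1.39-fold higher in MSR1 KO (95% interval 1.19 to 1.63), a log2 fold change of 0.48 (SE 0.0983, adjusted p = 0.0353, edgeR), and so passed the adjusted threshold while staying under the fold of 1.5. Leaving out any of the libraries gave adjusted p-values between 0.00796 and 0.143, with a pass in the absence of MSR1 WT replicate 3 only.

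Irf7 (ENSMUSG00000025498.15, chr7:141262706-141266481, minus strand) is known as a master regulator of the IFN-α genes. It was at 343, 371 and 373 CPM in MSR1 KO and at 133, 91.6 and 202 CPM in MSR1 WT. The MSR1 KO libraries were close together (1.09-fold from lowest to highest), and the MSR1 WT libraries were spread over 2.20-fold with replicate 3 at the top. The lowest MSR1 KO library was 1.70 times the highest MSR1 WT library. The mean was 363 ± 16.8 CPM (SD, n = 3) against 142 ± 55.7 CPM, a rise of 2.55-fold (95% interval 1.74 to 3.75) with a log2 fold change of 1.35 (SE 0.242, adjusted p = 0.0253, edgeR). Leaving out any of the libraries gave log2 fold changes between 1.12 and 1.69, with adjusted p-values between 0.00262 and 0.112.

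Irf1 (ENSMUSG00000018899.16, chr11:53770014-53778374) encodes an activator of many IFN-γ-induced genes. It was at 149, 198 and 88.3 CPM in MSR1 KO and at 64.4, 87.5 and 62.8 CPM in MSR1 WT. The groups were apart by a ratio of 1.01 only. In contrast to Irf7, the spread lay in the MSR1 KO libraries (2.24-fold from lowest to highest). Irf1 rose 2.03-fold (95% interval 1.33 to 3.10) with a log2 fold change of 1.02 (SE 0.267), an unadjusted p of 0.00483 and an adjusted p of 0.0730 by edgeR. It was therefore called by the study's definition and missed the adjusted threshold. Without MSR1 KO replicate 3 the log2 fold change was 1.28 with an adjusted p of 0.0252, and without MSR1 KO replicate 2 it was 0.73 with an adjusted p of 0.159.

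Socs1 (ENSMUSG00000038037.4, chr16:10783808-10785536, minus strand), the inhibitor of JAK kinases, had few counts. There were 189, 211 and 205 counts in MSR1 KO and 88, 53 and 107 in MSR1 WT. In CPM these were 5.26, 5.30 and 4.41 against 2.13, 1.12 and 2.59, with a lowest MSR1 KO library 1.70 times the highest MSR1 WT library. Socs1 rose 2.57-fold (95% interval 1.58 to 4.17), with a log2 fold change of 1.36 (SE 0.304, adjusted p = 0.0449, edgeR). Leaving out any of the libraries gave values between 1.08 and 1.62, with adjusted p-values between 0.0346 and 0.135. For each of these 9 genes the exact two-sided permutation test over 3 against 3 libraries cannot give a p below 0.1. It gave 0.1 for the 6 genes whose groups did not overlap, 0.2 for Ifnar1 and Ifngr1 and 0.3 for Ifngr2.

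**Figure D2:**
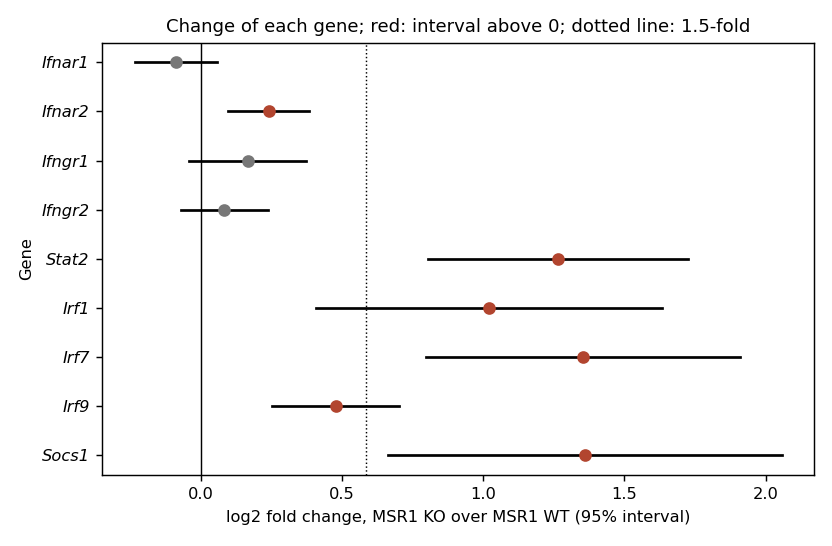
Log2 fold change of MSR1 KO over MSR1 WT (horizontal axis) with its 95% interval for each of the 9 genes, with 1.5-fold marked by the dotted line. The intervals of Ifnar1, Ifngr1 and Ifngr2 (grey) include 0, that of Ifnar2 lies between 0 and the dotted line, and those of Stat2, Irf7 and Socs1 lie wholly above 1.5-fold.

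The libraries did not vary in the same way for every factor. MSR1 WT replicate 3 was the highest MSR1 WT library for Stat2, Irf7, Irf9 and Socs1, whereas for Irf1 the highest was MSR1 WT replicate 2. Among the MSR1 KO libraries, replicate 2 was the highest and replicate 3 the lowest for Stat2, Irf1 and Socs1. Irf7 and Irf9 were instead highest in MSR1 KO replicate 3. Relative to the mean of the MSR1 WT libraries, MSR1 KO replicate 3 had a log2 level of 0.30 for Irf1 and 1.02 for Stat2, against 1.39 for Irf7.

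**Figure D3:**
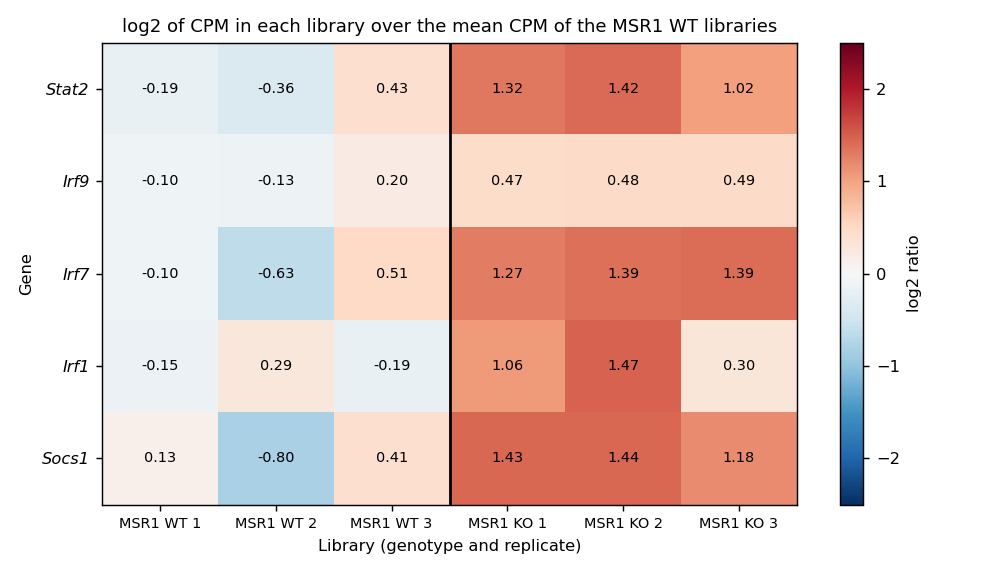
Log2 of the CPM of each library over the mean CPM of the MSR1 WT libraries (colour and printed values) for 5 of the 9 genes (rows) in the 6 libraries (columns). All MSR1 KO values are above 0, Irf9 is even across the MSR1 KO libraries (0.47, 0.48 and 0.49), and Irf1 ranges from 0.30 to 1.47 there.

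Levels were compared between genes per length, as RPKM, which is the CPM of a gene divided by the kilobases of its merged exons. In MSR1 WT macrophages Ifngr1 was the most abundant of the 9 genes at 134 ± 5.13 RPKM (SD, n = 3), followed by Ifnar2 at 62.4 ± 1.46 and Ifngr2 at 52.4 ± 2.54 RPKM. Irf7 (37.6 ± 14.8 RPKM) overlapped both Ifngr2 above it and Ifnar1 (36.0 ± 0.843 RPKM) below it. Stat2 (18.7 RPKM), Irf1 (18.0 RPKM) and Irf9 (16.8 RPKM) overlapped each other, and Socs1 was the lowest at 1.45 ± 0.563 RPKM. In MSR1 KO macrophages Ifngr1 stayed at the top at 151 ± 17.7 RPKM. Irf7 came next at 96.0 ± 4.45 RPKM, above Ifnar2 at 73.6 ± 2.34 RPKM, without overlap between neighbours, and Ifngr2 followed at 55.5 ± 1.57 RPKM. Stat2 (45.0 ± 6.26 RPKM) and Irf1 (36.5 ± 13.8 RPKM) overlapped each other, Irf1 also overlapped Ifnar1 (33.8 ± 1.26 RPKM) and Irf9 (23.3 ± 0.168 RPKM), and Socs1 (3.72 ± 0.375 RPKM) came last. The order depends on the length used. On the length of the longest coding transcript, Ifngr1 and Socs1 kept the top and the bottom in both genotypes, and Irf7 again moved above Ifnar2 in MSR1 KO (162 against 80.4 RPKM, and 63.5 against 68.1 RPKM in MSR1 WT). Ranks in the middle changed, with Stat2 below Irf9 in MSR1 WT by that length.

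The balance of partners was compared as the ratio of their RPKM values within each library, for 3 pairs. The ratio of Ifnar2 to Ifnar1 was 2.13, 2.11 and 2.30 in MSR1 KO against 1.77, 1.67 and 1.76 in MSR1 WT. The groups did not overlap, and the log2 difference was 0.33 (exact permutation p = 0.1, the smallest that 3 against 3 libraries allow). The ratio of Ifngr1 to Ifngr2 was 2.56, 2.59 and 2.99 against 2.37, 2.61 and 2.73, which overlapped (log2 difference 0.08, exact permutation p = 0.6). Stat2 to Irf9 was 2.01, 2.15 and 1.62 in MSR1 KO against 1.04, 0.954 and 1.30 in MSR1 WT, with a log2 difference of 0.81 and no overlap (exact permutation p = 0.1). With 3 tests and a smallest p of 0.1, none of these differences can pass a threshold of 0.05.

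The genes upstream, beside and downstream of the 9 were described from lists of known pathway members. The list of interferon genes themselves had 21 members. None passed the filter on low counts, and 17 of them, including all IFN-α genes listed, had 0 counts in all 6 libraries, which allows up to 3 counts per library, or 0.0835 CPM in the least deep library. This limit covers counting error only. Ifnb1 had 8, 6 and 0 counts in MSR1 KO and 0, 0 and 4 in MSR1 WT, and Ifng had 0 in each MSR1 KO library and 4, 0 and 0 in MSR1 WT. Ifne had 3, 0 and 0 counts against 0 in each MSR1 WT library, and Ifnz had 2, 4 and 3 against 1, 2 and 4. A difference in interferon transcripts was thus not detectable at this depth. Interferon protein, and interferon transcripts of the BMSCs, were not measured in these libraries.

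Of 6 other receptor chains and kinases, 0 were called higher and 0 lower, and their median log2 fold change was 0.20. Jak3 stood at 0.41 on the log2 scale (SE 0.0805, adjusted p = 0.0300, edgeR) and was the only one of the 6 past the adjusted threshold. Jak2, which serves the IFN-γ receptor, had 0.33 (adjusted p = 0.0893), Tyk2 0.22 (adjusted p = 0.398), Ifnlr1 0.18 (adjusted p = 0.862) and Jak1 -0.14 (adjusted p = 0.245). JAK1 and TYK2 are the kinases of the type I receptor, and neither gene was called. By unadjusted p under 0.05 alone there were 3 of the 6 (Jak1, Jak2 and Jak3). The share of all tested genes by that criterion was not taken, so this count has no comparison. The adjusted call of Jak3 was lost without each library in turn except MSR1 WT replicate 3.

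Of the 5 other STATs described, 0 were called in either direction and 0 had an unadjusted p under 0.05 by edgeR (0 passed the adjusted threshold by DESeq2), with a median log2 fold change of 0.13. On the log2 scale Stat4 was at 0.27 (adjusted p = 0.438), Stat3 0.21 (adjusted p = 0.314), Stat6 0.13 (adjusted p = 0.275), Stat5b 0.09 (adjusted p = 0.634) and Stat5a -0.01 (adjusted p = 0.958, edgeR). Of 6 other IRFs, 5 were tested. Irf5, a factor of Toll-like receptor signalling, was higher with a log2 fold change of 0.60 (SE 0.104, adjusted p = 0.0237, edgeR), which is just past the fold of 1.5. The call by fold was lost in the absence of MSR1 KO replicate 1 or 2 or of MSR1 WT replicate 2 or 3, and with library size alone as the scaling. Irf2, known to counter IRF1 at shared sites, stood at 0.50 on the log2 scale (adjusted p = 0.0318, edgeR), under the fold threshold. Neither passed the adjusted threshold when MSR1 KO replicate 1 or 2 or MSR1 WT replicate 1 or 2 was left out, and without MSR1 WT replicate 3 Irf5 alone did. Irf4, Irf8 and Irf3 had values of 0.15, 0.10 and 0.09, with adjusted p-values from 0.480 to 0.778. Irf3, which is present before infection and activates Ifnb1 with IRF7, was at 31.5 ± 4.57 CPM in MSR1 KO and 29.5 ± 3.85 CPM in MSR1 WT (SD, n = 3).

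Of 16 other inhibitors of JAK-STAT signalling, 1 was called higher and 0 lower, and the median log2 fold change was -0.06. The one called was Usp18, a protease that removes ISG15 from proteins and also blocks IFNAR2, at 52.7 ± 8.72 CPM against 24.9 ± 10.4 CPM (log2 fold change 1.08, SE 0.271, adjusted p = 0.0634, edgeR). By edgeR 0 of the 16 passed the adjusted threshold, although 4 had an unadjusted p under 0.05, and 3 passed by DESeq2. The count by unadjusted p again has no share of all genes to be set against. Usp18 passed by edgeR without MSR1 WT replicate 3 and with the replicate number as a block (adjusted p = 0.0493). It also passed, with Ptpn6, at a floor of 10 counts per library. The phosphatase genes Ptpn6 and Ptpn2 had log2 fold changes of 0.37 (adjusted p = 0.0525) and 0.34 (adjusted p = 0.0676). Socs6 had -0.50 (adjusted p = 0.511) and Cish -0.27 (adjusted p = 0.751), and each was called lower by fold and p without 1 library, Socs6 without MSR1 KO replicate 1 and Cish without MSR1 KO replicate 2. Socs3, the inhibitor of IL-6-type receptors, was looked up after its values were seen and had -0.18 (SE 0.148, adjusted p = 0.570, edgeR). Among the SOCS family genes examined over all 6 libraries, the call was thus made for Socs1 alone, and a difference between Socs1 and the others was not tested.

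Of 10 adaptors and kinases that activate IRF3 and IRF7, 0 were called in either direction, with a median log2 fold change of 0.10. Past the adjusted threshold and under the fold of 1.5 were Tmem173, which encodes the adaptor STING of cytosolic DNA sensing (log2 fold change 0.52, adjusted p = 0.0235), and Myd88, the adaptor of most Toll-like receptors (0.45, adjusted p = 0.0287, edgeR). Traf3 had -0.32 (adjusted p = 0.270), Tbk1 0.15 (adjusted p = 0.324) and Irak4 0.14 (adjusted p = 0.436). Leaving out MSR1 KO replicate 1, 2 or 3, or MSR1 WT replicate 1 or 2, ended both adjusted calls, although Tmem173 was called higher by fold and p in the absence of MSR1 KO replicate 1. These were the 2 genes of the 10 with an unadjusted p under 0.05, a count with no share of all genes to be set against.

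Of 17 target genes led by ISGF3, 17 were called higher and 0 lower, with a median log2 fold change of 1.08, and 15 passed the adjusted threshold. These genes were listed with earlier results of these data known, so their direction is no independent evidence. Ifi44 had the highest value among them at 1.80 (SE 0.288, adjusted p = 0.0195), followed by Ifit2 (1.54, adjusted p = 0.0249), Ifit3 (1.54, adjusted p = 0.0295), Rsad2 (1.54, adjusted p = 0.0190) and Oas3 (1.46, adjusted p = 0.0253, edgeR). IFIT and OAS proteins bind or sense viral RNA, and Rsad2 encodes the antiviral enzyme viperin. Their summed level was 3311, 3303 and 3023 CPM in MSR1 KO and 1204, 1099 and 1899 CPM in MSR1 WT. The groups did not overlap, and MSR1 WT replicate 3 was the highest of its group, as for Stat2, Irf7, Irf9 and Socs1. The number past the adjusted threshold fell to 2 without MSR1 KO replicate 1 or MSR1 WT replicate 1. It was 5 when MSR1 KO replicate 2 was left out, 6 when this was MSR1 KO replicate 3 and 4 in the absence of MSR1 WT replicate 2. Without MSR1 WT replicate 3 it rose to 17. In each of these fits 16 or 17 of the 17 stayed called by fold and p. The number of all genes higher at the adjusted threshold, 369 with all libraries, fell and rose in the same fits. It was 407 without MSR1 WT replicate 3 and between 18 and 183 in the others.

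Of 15 target genes best known as induced by IFN-γ, 9 were called higher and 0 lower, with a median log2 fold change of 1.18, and 7 passed the adjusted threshold. This list, too, was chosen with earlier results known. The guanylate-binding protein genes Gbp4 (log2 fold change 3.13, SE 0.611, adjusted p = 0.0301), Gbp2 (3.04, SE 0.645, adjusted p = 0.0386) and Gbp5 (2.14, SE 0.368, adjusted p = 0.0234, edgeR) rose most. Serpina3g had 1.64 (adjusted p = 0.0639). Cxcl9, a chemokine that IFN-γ induces, had 1.61 with an SE of 0.940 and was not called (adjusted p = 0.416). Its level was 1.64 ± 1.39 CPM against 0.537 ± 0.274 CPM (SD, n = 3). Ciita, the activator of MHC class II genes, and its targets Cd74 and H2-Ab1, looked up after their values were seen, were not called either, with log2 fold changes of 0.57, 0.37 and 0.46. These calls depended on single libraries, since Cxcl9 and Ciita were called higher without MSR1 KO replicate 3 and Cd74 and H2-Ab1 without MSR1 WT replicate 3, each of which took the count from 9 to 11. The summed level of the 15 genes was 1773, 2437 and 1134 CPM in MSR1 KO and 672, 676 and 1151 CPM in MSR1 WT, so MSR1 KO replicate 3 lay below MSR1 WT replicate 3. MSR1 KO replicate 2 was the highest and replicate 3 the lowest, the order seen for Stat2, Irf1 and Socs1. Among the MSR1 WT libraries the sum was highest in replicate 3, where Irf1 was lowest (62.8 CPM). Without MSR1 KO replicate 1, MSR1 WT replicate 1 or MSR1 WT replicate 2 the number past the adjusted threshold was 0, and without MSR1 KO replicate 2 it was 2. It was 8 without MSR1 KO replicate 3 and 7 in the absence of MSR1 WT replicate 3, where Cd74 was among them. In the fits where it was 0, the number of all genes higher at this threshold was 42, 18 and 62, against 369 with all libraries.

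**Figure D4:**
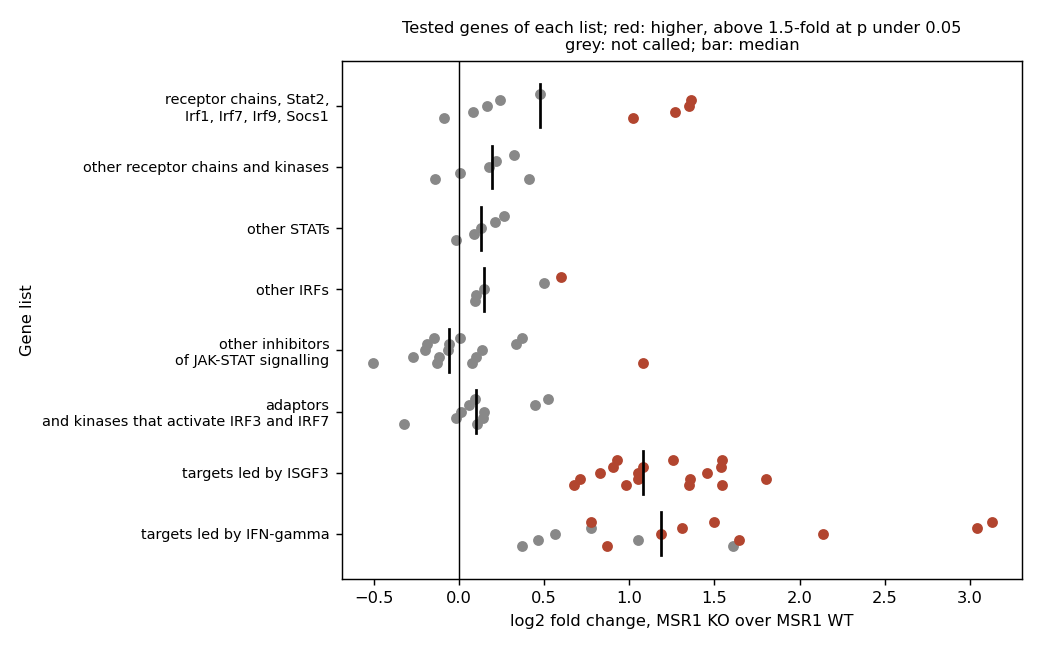
Log2 fold change of MSR1 KO over MSR1 WT (horizontal axis) for each tested gene of the 9 and of 7 other lists (vertical axis), with genes called higher in red, others in grey and a black bar at the median of each list. Medians lie between -0.06 and 0.20 for the lists of upstream genes and inhibitors, and at 1.08 and 1.18 for the 2 lists of target genes.

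Genes with the most similar pattern over the 6 libraries were found for the 5 genes that were called or passed the adjusted threshold, as the smallest root mean square difference of centred log2 CPM among 9211 genes with a mean of at least 10 CPM. The nearest to Stat2 were Fcgr1 (0.0939), the high-affinity Fc gamma receptor, Cmpk2 (0.101) and H2-T22 (0.107). The nearest to Irf7 were Ifi206 (0.0591), H2-T24 (0.0988) and Ifi211 (0.102), and those to Irf9 were Ifi207 (0.0271), Rnf144b (0.0431) and Ms4a6c (0.0506). Irf1 had no gene as near, with Inpp5j at 0.190, Wars at 0.232 and Kif5c at 0.245. Those nearest to Socs1 were Ifi211 (0.155), Irf7 itself (0.162) and AC151730.1 (0.163). These distances come from 6 libraries that also differ in genotype, and they are given as a description.

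Markers of other cells that a marrow culture could hold were read beside these results. In bulk RNA, fewer cells of a type and less RNA per cell cannot be told apart. Plasmacytoid dendritic cells are a known source of IFN-α and hold much IRF7. Of their 8 markers, Ly6d and Klk1 were at 0 counts in every library, Siglech was at 0.268 ± 0.168 CPM in MSR1 KO and 0.458 ± 0.273 CPM in MSR1 WT (SD, n = 3), and 2 of the 6 tested, Ccr9 and Bst2, were called higher. Their summed level was 489 to 537 CPM against 290 to 396 CPM, of which Bst2, itself an interferon-induced gene, made up 390 CPM and 234 CPM. Of 10 markers of T and NK cells, which can make IFN-γ, 8 were tested and 3 (Klrb1c, Gzma and Tbx21) were called higher. Their summed level was 32.4 to 38.5 CPM in MSR1 KO and 16.7 to 30.8 CPM in MSR1 WT. As for Stat2 and Irf7, MSR1 WT replicate 3 had the highest sum of its group. The defining T cell genes Cd3d and Cd3e had too few counts to be tested. Of 12 stromal markers, 1 was called higher (Thy1) and 4 lower (Col3a1, Pdgfra, Pdgfrb and Cxcl12), with sums of 1221 to 1600 CPM against 1548 to 1959 CPM. Of 8 neutrophil markers, 1 was called higher (Cxcr2), with sums of 436 to 720 CPM against 297 to 508 CPM. Of 8 markers of conventional dendritic cells, 7 were tested and 2 were called higher (Xcr1 and Dpp4). Their sums were 12.6 to 15.7 CPM against 4.45 to 8.88 CPM, of which Dpp4 made up 9.33 and 3.02 CPM on average. The others were not called. Zbtb46, Batf3 and Flt3 had log2 fold changes of -0.53, -0.26 and -0.15, and Clec9a and Itgae had 1.80 and 0.16. Of 6 B cell markers, 2 were tested and 1 was called higher (Ighm), with sums of 191 to 255 CPM against 124 to 164 CPM, while 3 of 6 erythroid markers were at 0 and none was tested. Of the 12 macrophage markers, 1 was called higher, which was Fcgr1 (log2 fold change 1.14), the gene nearest to Stat2 in pattern. The part of these other cells in the levels of Stat2, Irf1, Irf7, Irf9 and Socs1 was not tested.

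Some of the 9 genes share exon sequence with a neighbour, and the counting method and its strand setting are not given in the sources used here. Exons of Ifnar2 share 315 bases (9.46% of its exon length) with Gm21970 on the same strand, which had 76 to 129 counts per library. Irf9 shares 2.28% of its exon length with Rnf31 on the same strand. Irf1 shares 3.40% with Gm17334 and Irf7 shares 1.19% with Phrf1, both on the opposite strand. Reads in these stretches could have been split or left uncounted.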

How the data were processed

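Total RNA of macrophages was sequenced as mRNA libraries on an Illumina HiSeq instrument. The authors deposited raw counts per gene and library for 52550 genes, which were used here, beside a signal column per library (the count divided by a size factor) and their own fold changes and p-values, which were not used. The submitters' processing notes name fastp 0.17.1, HISAT2 2.1.0, DESeq2 1.18.1 and R 3.4.3, whereas the study's methods name TopHat and FPKM values. The counting program, strand setting and genome build are not given in the sources used here. Of the gene identifiers, 52403 were found in GENCODE vM21 (GRCm38) and 49909 kept the same span in that annotation, among them 7 of the 9 genes described, so positions follow GRCm38. No value column was left unmapped and 0 rows lacked a gene name.

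Counts were filtered with filterByExpr, scaled by TMM and tested across 16402 genes with the quasi-likelihood test of edgeR 4.0.16 in R 4.3.3, with genotype as the only factor and Benjamini-Hochberg adjustment over all tested genes. Each SE is the log2 fold change divided by root F, and CPM values use TMM-scaled library sizes. The exact permutation test on log2 values was two-sided (scipy 1.17.1). The study's definition of a call (over 1.5-fold, with p under 0.05 before adjustment) was used. RPKM used the merged exons of GENCODE vM21 within the deposited gene span, and promoter windows came from RefSeq. The fit was tested on simulated counts, and the outcome is not reported or relied on here. Named genes were the 9 members, Msr1, up to 5 genes of each list with the largest change, and for each gene called or past the adjusted threshold the 3 nearest in pattern. Genes outside this rule are marked in the text, and markers were named by cell type. A gene of the pathway is not reported here. The 9 genes and all lists were chosen with earlier results of these data known. Same-numbered libraries were not taken as pairs. Alternatives were DESeq2 1.42.0, DESeq2 size factors, scaling by library size only, keeping all genes with any count, a floor of 10 counts per library, a block for the replicate number, and leaving out each library. Total counts were 36143518 to 47417448 per library.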

Additional observations from a re-analysis of the deposited data

How the results depend on the processing

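The 9 genes kept their direction under every alternative run. The number called higher by fold and p was 4 under each of them, except for 5 without MSR1 WT replicate 3, and the number called lower was 0. The number at an adjusted p under 0.05 was 4, and it was 6 by DESeq2's Wald test, 3 without a filter and 0 with the replicate number as a block. With libraries left out in turn it ranged from 0 to 4. Over the same fits the number of all genes higher at this threshold ranged from 18 to 407, against 369 with all libraries. Deviations of same-numbered libraries from their group means correlated at -0.0261, 0.0187 and -0.0048, so the numbers were not read as pairs, and not every library correlated best with its own number. With the replicate block, log2 fold changes were 1.30 for Stat2 (adjusted p = 0.0630), 1.42 for Irf7 (adjusted p = 0.0514), 0.48 for Irf9 (adjusted p = 0.0777) and 1.42 for Socs1 (adjusted p = 0.0970), while calls by fold and p were the same. The block also took the genes of the whole table past the adjusted threshold from 369 higher and 436 lower to 59 and 78, and the target genes past it from 15 to 3 for ISGF3 and from 7 to 0 for the IFN-γ list. DESeq2 found 727 higher and 850 lower, and library size alone shifted the median of all genes to -0.03 (log2). For Msr1 the log2 fold change ranged from -2.16 to -1.93 with libraries left out. The length of the longest coding transcript, chosen after the data had been seen, changed RPKM levels and the middle of their order. Socs1, at 53 to 211 counts per library, is the least deeply counted of the 9 genes.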
